A study of Drosophila melanogaster with 6 samples.

Results

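Complex IV, or cytochrome c oxidase, is the last enzyme of the mitochondrial respiratory chain: it takes electrons from cytochrome c, passes them to oxygen and pumps protons across the inner mitochondrial membrane. Its catalytic core is built from COX1, COX2 and COX3, which are encoded by mitochondrial DNA (mtDNA), while the surrounding subunits are encoded in the nucleus, translated in the cytosol and imported. The fibrillar indirect flight muscles of Drosophila depend on respiration for flight and are packed with mitochondria, so that both sets of transcripts are abundant in this tissue. The genes described here are the 10 nuclear-encoded Complex IV subunit genes whose symbols were found among the 17494 genes of the adult count table: COX4, COX5A, COX5B, COX6B, COX7A, COX7AL, COX7C, COX8, levy and cype. They were chosen by name and not by their measured values, although earlier results of these data were known.

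RNA-seq had been performed on hand-dissected indirect flight muscles (the labels name the dorsolongitudinal muscles) of adult Drosophila melanogaster females, with 3 Mef2>M1BP RNAi samples and 3 Mef2>WT samples, each pooled from 30 flies aged 2 days. All 6 samples carried the Mef2-GAL4 driver. It drove UAS-M1BP RNAi line #1, the weaker of the lines used by the study, in the M1BP RNAi samples, whereas for WT the driver had been crossed to w1888. Mef2-GAL4 is active in muscles through all myogenic stages and, per the study, also in some neurons. The study adds that Mef2 is expressed in the fat body too. With a neuronal or a fat body driver of M1BP RNAi, it saw no sarcomere or mitochondrial defect in flight muscles. Per the study, only a minority of M1BP RNAi flies eclosed at its standard rearing temperature, so the adult samples came from those that did. The effect of this selection was not tested. M1BP (Motif-1 binding protein) is a zinc-finger transcription factor that binds the core promoter element Motif 1, and the comparison asks how the Complex IV genes were expressed when it was depleted in muscle.

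The deposited counts summed to between 37908823 and 64768186 upon M1BP RNAi and between 45132859 and 64871987 in WT. The transcripts of mtDNA took 54.0% to 59.4% of the counts upon M1BP RNAi and 71.5% to 76.3% in WT. The M1BP gene (FBgn0037621) had 49.5, 50.1 and 52.0 normalized counts in the M1BP RNAi samples, against 148.9, 123.4 and 119.1 in the WT samples, where a normalized count is a count scaled to an effective library size common to all samples. The gene fell by 1.36 on the log2 scale (SE 0.16, edgeR quasi-likelihood test, Benjamini-Hochberg adjusted p = 3.36e-04, or 0.00103 to 0.00228 with 1 sample left out), so the target of the RNAi followed the labels. The summed normalized counts of 8 flight muscle markers were 1156907 to 1659929 upon M1BP RNAi and 963759 to 1031573 in WT, a sum carried by Mhc and Act88F (log2 fold changes 1.63 and 1.83), and testis markers stayed at or below 1.89 in every sample, with 5 of 6 at 0. Other markers of this list went the other way: Mf, which encodes myofilin, a thick filament protein, had 26738 to 35910.5 upon M1BP RNAi and 302515 to 373029.6 in WT (log2 fold change -3.35), and salm, which encodes the transcription factor that specifies fibrillar muscle, had a log2 fold change of -1.48. Markers of other cell types moved with the genotype: the sum of the 6 fat body markers was between 9563 and 21107 upon M1BP RNAi and between 37029 and 69629 in WT. That sum is nearly all from the yolk protein genes Yp1 to Yp3, and another of its markers, Lsp2, was higher upon M1BP RNAi (313, 35.1 and 31.8, against 24.0, 13.3 and 1.89 in WT, edgeR adjusted p = 0.0363). The 4 gut markers summed to between 10173 and 24141 upon M1BP RNAi and between 4212 and 15387 in WT. The 4 neuronal markers summed to between 1337 and 1762 upon M1BP RNAi and between 2691 and 3618 in WT, and the 4 haemocyte markers to between 1443 and 2039 upon M1BP RNAi and between 2691 and 3339 in WT. M1BP RNAi sample 1 stood apart in its 4 ovary markers (213.4, against 6.01 and 9.78 in the other M1BP RNAi samples and 6.62 to 9.29 in WT) and in its 3 tubular muscle markers (21035, against 7131 and 10069 in the other M1BP RNAi samples and 4995 to 8630.5 in WT). The part of these differences in the results given here was not tested. In bulk RNA, fewer cells of a type and less RNA per cell cannot be told apart.

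The promoters of these genes bear on the comparison, because Motif 1 is the element that M1BP binds. The study scanned a window around the start of each OXPHOS gene for the M1BP binding matrix and listed the best match of each promoter. A match was listed for 5 of the 9 Complex IV subunit genes scanned, and 3 of these matches held the letters GGTCACACT, a core of Motif 1, in the orientation of the motif. The same letters occurred in 21 of the 79 matches listed over all 124 promoters scanned, that is in 26.6% of the matches and in 16.9% of the promoters. The matches of the 3 genes are shown with the core in capitals, each from the dm6 window named in its line:
COX4 (window chr2L:19958463-19958763): gatgtGGTCACACTtctc
COX5A (window chr3R:11819109-11819409): attgcGGTCACACTgcat
COX5B (window chr2L:6557550-6557850): accgcGGTCACACTgatc

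All 3 genes lie on the plus strand. The matches of COX4 and COX5B read along that strand, and the match of COX5A lies on the minus strand. A 4th match, in the COX8 promoter on arm 3L, reads ggtatggtcacaatgcgt and lacks the core, and the match listed for COX7C did not hold the core either. No match was listed for COX6B, COX7A, levy or cype, and COX7AL was not among the promoters scanned. These letters describe the promoters and do not show binding.

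COX5B was the Complex IV subunit gene whose transcripts were lower in all M1BP RNAi samples than in any WT sample, and the samples of the groups overlapped for the other 8 genes tested. COX7AL was too low to be tested. Of the 9 genes tested, 0 passed an adjusted p of 0.001, where 17.5% of the 9276 genes tested did, and 1, COX5B, passed 0.05, where 56.2% of all genes did (27.0% on the lower side, as COX5B). At an unadjusted p under 0.05 the count was also 1 of 9, against 61.1% of all genes, and with DESeq2 the counts were 1 at an adjusted p of 0.001 (28.4% of its genes) and 1 at 0.05 (45.8%). The log2 fold changes were below 0 for 8 genes and above 0 for levy, with a median of -0.11, where all genes tested had a median of 0.02. The 95% intervals of 8 of the 9 genes included 0. The M1BP RNAi and WT samples failed to overlap for 1 of the 9 genes, again COX5B on the lower side, against 64.2% of all genes (31.1% lower and 33.1% higher).

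**Figure D1:**
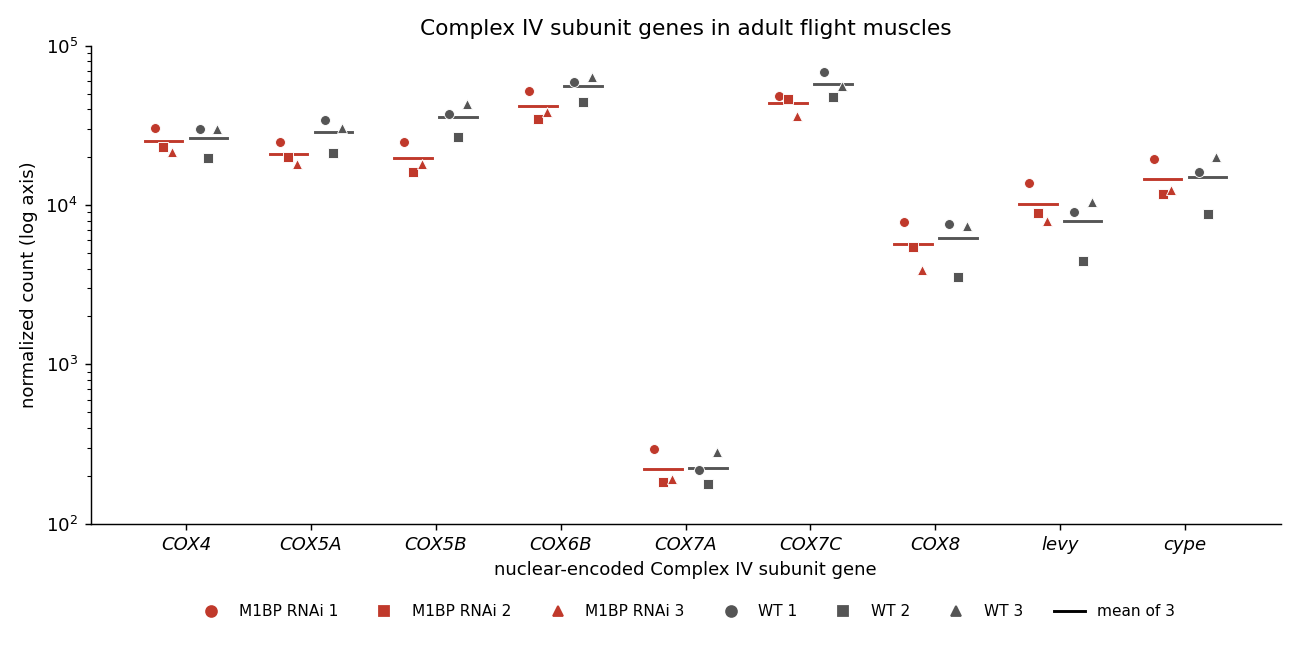
Normalized counts (log axis) of the 9 Complex IV subunit genes tested, with 1 point per sample (circle, square and triangle for replicates 1, 2 and 3) and a line at the mean of 3, M1BP RNAi in red left of WT in grey. The groups overlap for every gene shown but COX5B, and COX7A lies far below the others. COX7AL, with 0 to 2 counts, is not drawn.

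COX5B (FBgn0031830, chromosome arm 2L, 6557800 to 6559308, plus strand, 729 exonic bases) encodes a zinc-binding subunit on the matrix side of the enzyme. It had 24982, 16111 and 18148 normalized counts upon M1BP RNAi, against 37543, 26655 and 42892 in WT. All 3 M1BP RNAi samples lay below the lowest WT sample, which was WT 2. The log2 fold change was -0.85 (SE 0.23, 95% interval -1.39 to -0.32, edgeR adjusted p = 0.0146), so that COX5B fell at the 0.05 level and not at 0.001. Leaving out 1 sample at a time kept the value between -1.06 and -0.69, with adjusted p between 0.00785 and 0.0541, and above 0.05 in 4 of these 6 fits (without M1BP RNAi 2, M1BP RNAi 3, WT 1 or WT 3). DESeq2 gave a log2 fold change of -0.85 with an adjusted p of 5.56e-04.

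COX5B has a paralog on the same strand, COX5BL (FBgn0031831), which starts 122 bases beyond its end. COX5BL had 20.6, 35.1 and 22.0 normalized counts upon M1BP RNAi and 66.8, 86.3 and 84.2 in WT, orders of magnitude below COX5B. Its samples did not overlap either, with a log2 fold change of -1.62 (SE 0.26, edgeR adjusted p = 0.00146). The counts are labelled as from unique reads. Whether the pair share near-identical stretches, where reads could be lost or misassigned, was not checked, so the COX5BL values are uncertain.

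COX4 (FBgn0032833, 2L, 19958713 to 19960065, plus strand, 1231 exonic bases) encodes the largest nuclear subunit, which contacts the catalytic core. It had 30556, 23307 and 21604 normalized counts upon M1BP RNAi and 30069.8, 19646 and 30044 in WT. The samples of both groups were interleaved, and the log2 fold change was -0.08 (SE 0.21, 95% interval -0.57 to 0.41, edgeR adjusted p = 0.767). COX5A (FBgn0019624, 3R, 11819359 to 11820299, plus strand), whose product sits on the matrix face beside that of COX4, had 24926, 19988 and 18198 normalized counts upon M1BP RNAi and 34268, 21405 and 30632 in WT. Only M1BP RNAi 1 reached into the WT range, and the log2 fold change of -0.45 (SE 0.21, 95% interval -0.93 to 0.03) had an edgeR adjusted p of 0.0973. The 3 genes with the Motif 1 core had log2 fold changes of -0.08, -0.45 and -0.85, against -0.43 to 0.35 in the 6 other genes tested. These ranges overlap. The 6 others include COX7C and COX8, which had a listed match without the core. A relation of the motif to the fold change was not tested.

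On the intermembrane side, where cytochrome c docks, lies the subunit encoded by COX6B (FBgn0031066, X, 19740537 to 19744335, minus strand). It had 52365, 34777 and 38232 normalized counts upon M1BP RNAi and 59587, 44611 and 64151 in WT. Again only M1BP RNAi 1 lay above the lowest WT sample, and the log2 fold change was -0.43 (SE 0.21, edgeR adjusted p = 0.114). COX6B shares 74 exonic bases with CG18809 on the same strand, which had 2072 to 3766 counts, so a small part of its reads cannot be assigned.

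The remaining genes encode small subunits that span the inner membrane once. COX7C (FBgn0040773, 2R, 10048353 to 10050066, plus strand) had 48591, 46507 and 36547 normalized counts upon M1BP RNAi and 68634, 47450.5 and 55774 in WT. M1BP RNAi 1 lay above WT 2 by a narrow margin, the other M1BP RNAi samples lay below all WT samples, and the log2 fold change of -0.38 (SE 0.18, 95% interval -0.81 to 0.04) had an edgeR adjusted p of 0.107. COX7C shares 134 exonic bases with oys on the opposite strand (7187 to 14632 counts). The study made its flight muscle libraries with a stranded kit, but the sources used here do not say whether the counting used strand. COX8 (FBgn0263911, 3L, 21538859 to 21539447, minus strand) had 7819, 5467 and 3942 normalized counts upon M1BP RNAi and 7625, 3514 and 7434 in WT, with a log2 fold change of -0.11 (SE 0.34, edgeR adjusted p = 0.804). Each group spanned nearly the same range.

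The genes levy and cype are the Drosophila counterparts of the mammalian COX6A and COX6C genes. levy (FBgn0034877, 2R, 23548239 to 23548982, plus strand), whose mutants show temperature-sensitive paralysis, was the only gene with a fold change above 0. It had 13697, 8929.8 and 7946 normalized counts upon M1BP RNAi and 8993, 4464 and 10479 in WT, with a log2 fold change of 0.35 (SE 0.33, 95% interval -0.42 to 1.12, edgeR adjusted p = 0.394). The M1BP RNAi samples all lay above WT 2, but WT 3 exceeded the lower M1BP RNAi samples. With 1 sample left out the log2 fold change lay between 0.08 (without WT 2, and equally without M1BP RNAi 1) and 0.61 (without WT 3), with edgeR adjusted p between 0.197 and 0.850. For cype (FBgn0015031, 2L, 5327227 to 5327969, plus strand), the values were 19498, 11692 and 12397 normalized counts upon M1BP RNAi and 16151, 8819 and 19998 in WT, with a log2 fold change of -0.05 (SE 0.32, edgeR adjusted p = 0.915). levy shares 16 exonic bases with pita on the opposite strand, which had at most 719 counts.

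Of the COX7A pair, 1 gene was detected at the limit of a few counts only. COX7A (FBgn0040529, 3R, 8339944 to 8341043, minus strand) had 293, 182 and 190.1 normalized counts upon M1BP RNAi and 216, 178 and 279.9 in WT, with a log2 fold change of -0.03 (SE 0.24, edgeR adjusted p = 0.931). COX7AL (FBgn0037579, 3R, 8343669 to 8344310, plus strand), which lies 2625 bases away in the opposite orientation, had 1, 2 and 2 raw counts upon M1BP RNAi and 0, 0 and 1 in WT. These are below 3 counts in every library, so no fold change is given. Other paralogs were also low: COX4L had 0, 1 and 2 raw counts upon M1BP RNAi and 0, 0 and 2 in WT, and COX6AL had 0, 1 and 0 upon M1BP RNAi and 0, 0 and 4 in WT.

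**Figure D2:**
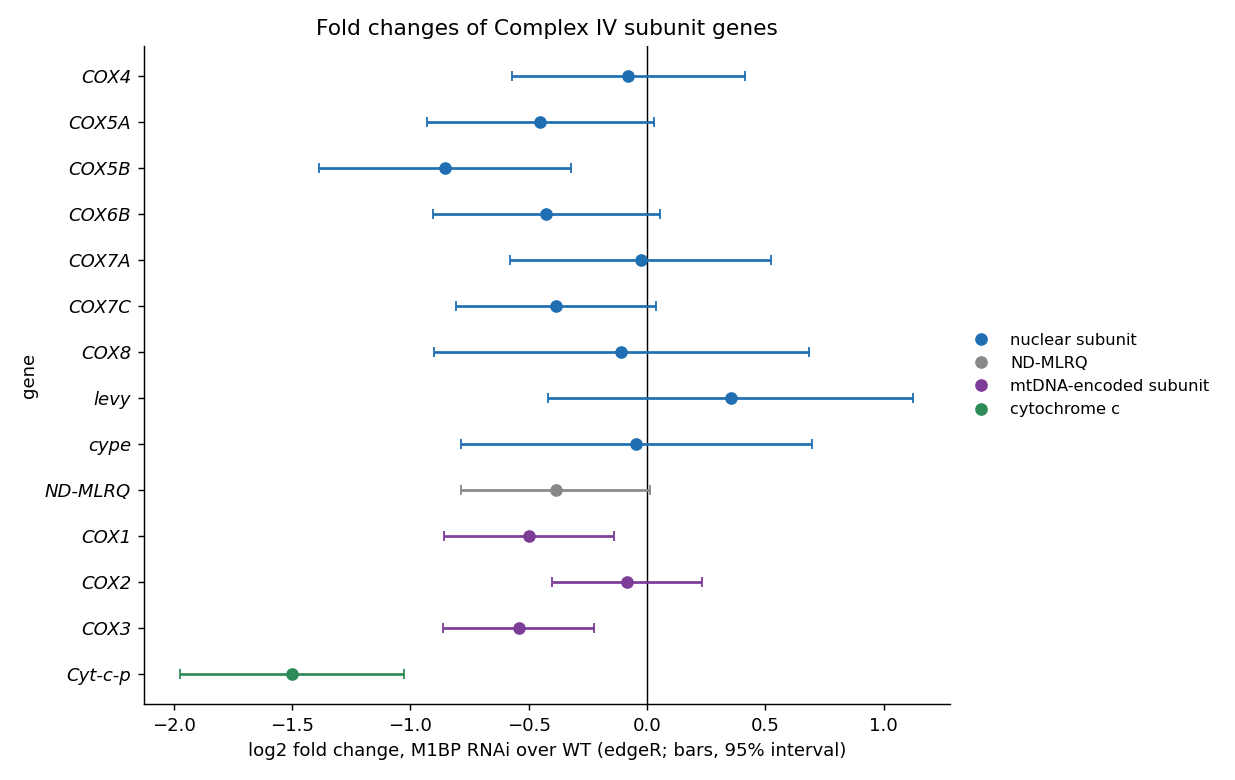
Log2 fold changes of M1BP RNAi over WT from edgeR, with bars for the 95% interval, for the 9 nuclear Complex IV subunit genes tested (blue), ND-MLRQ (grey), the 3 mtDNA-encoded subunits (purple) and the cytochrome c gene Cyt-c-p (green). Among the nuclear subunits only the interval of COX5B (-1.39 to -0.32) lies apart from 0, while Cyt-c-p lies at -1.50.

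A single sample in each group stood at the end of the range throughout. WT 2 had the lowest normalized count of the WT samples for 9 of the 9 genes tested, as it had for 57 of the 63 nuclear structural subunit genes of Complexes I, II, III and V and for 33.7% of all genes. M1BP RNAi 1 had the highest of the M1BP RNAi samples for 9 of 9, for 54 of 63 and for 36.4% of all genes. Without M1BP RNAi 1 the median log2 fold change of the 9 genes was -0.39 and 2 passed an adjusted p of 0.05, and without WT 2 it was -0.38 with 2 past 0.05, where 53.3% and 48.4% of all genes passed in the same fits. Without M1BP RNAi 3, and equally without WT 3, the median was 0.02, close to that of all genes, with 0 past 0.05, where 45.3% and 53.5% of all genes passed. Genes with under 1000 exonic bases, the Complex IV genes left out, took 11.8%, 10.6% and 11.0% of the nuclear counts upon M1BP RNAi and 11.1%, 9.68% and 11.4% in WT, so that they too were lowest in WT 2 and highest in M1BP RNAi 1 within their groups, and the part of this in the result was not tested.

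The Complex IV subunits are present in equal numbers in the assembled enzyme, but their transcripts were not. Levels were compared between genes as RPKM on the effective library sizes. COX6B (1009.6 ± 225 RPKM upon M1BP RNAi and 1356 ± 247 in WT, SD, n = 3 each) and COX7C (981 ± 144 upon M1BP RNAi and 1280.1 ± 238 in WT) were the highest in both groups. Upon M1BP RNAi they were followed by cype (530.5 ± 158), COX5B (516 ± 121), COX5A (504 ± 83.4), COX4 (389.5 ± 73.6), levy (328 ± 98.9) and COX8 (213 ± 72.6). In WT the order was COX5B (933 ± 216), COX5A (689 ± 159), cype (547 ± 207), COX4 (412 ± 93.1), levy (256 ± 101) and COX8 (230.0 ± 86.2). The levels of most neighbours in these orders overlapped between samples. The exceptions were COX7C above cype upon M1BP RNAi and, in both groups, COX8 above COX7A and COX7A above COX7AL. Within libraries the order was steadier: in WT each gene lay above the next in 3 of 3 libraries, but for COX6B above COX7C (2 of 3). Upon M1BP RNAi this held in 2 of 3 libraries for COX6B above COX7C, cype above COX5B and COX5B above COX5A, and in 3 of 3 for the other steps.

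COX7A stood far below the rest, with 6.06 ± 1.69 RPKM upon M1BP RNAi and 6.14 ± 1.41 in WT. The counts are labelled as from unique reads, and whether reads of COX7A were lost to similar sequences elsewhere was not checked. Within each library the level of COX8, the next gene up, was 28.2 to 40.8 times that of COX7A upon M1BP RNAi and 26.8 to 48.0 times in WT. The 8 other genes lay within 4.4- to 6.3-fold of each other upon M1BP RNAi and within 5.4- to 8.3-fold in WT. COX7AL averaged 0.0461 RPKM upon M1BP RNAi and 0.0102 in WT, which rests on 0 to 2 counts.

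Ratios between genes of the same library do not depend on how libraries are scaled, and they cancel a shift that all the genes of a sample share. Each gene was therefore expressed as a share of the summed counts per kilobase of the 10 Complex IV genes. COX5B took 11.8%, 10.4% and 12.3% upon M1BP RNAi, against 15.3%, 16.4% and 17.3% in WT, a difference of -0.51 on the log2 scale. COX4 took 8.56%, 8.88% and 8.70% upon M1BP RNAi, against 7.26%, 7.15% and 7.19% in WT, a difference of 0.27 on the log2 scale with SDs of 0.03 and 0.01. On this scale the COX4 samples, which were interleaved as normalized counts, fell into a narrow range in each group. The share of levy was 7.97%, 7.07% and 6.64% upon M1BP RNAi and 4.51%, 3.37% and 5.21% in WT (log2 difference 0.75), and that of COX7A was higher in all M1BP RNAi samples too (0.123% to 0.145%, against 0.092% to 0.118% in WT). The shares of COX5A, COX6B, COX7C, COX8 and cype overlapped between the groups.

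**Figure D3:**
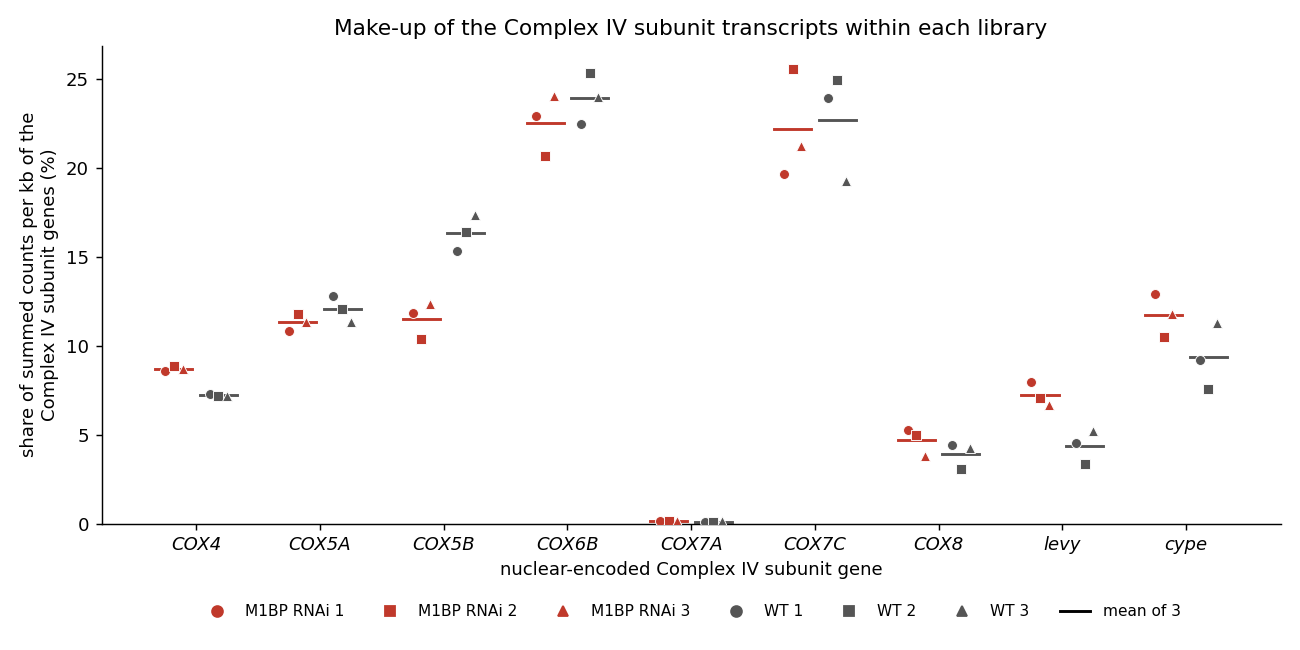
Share (%) of each gene in the summed counts per kilobase of the 10 Complex IV subunit genes of its own library, with 1 point per sample and a line at the mean of 3, M1BP RNAi in red left of WT in grey. COX5B takes 10.4% to 12.3% upon M1BP RNAi and 15.3% to 17.3% in WT, while levy takes 6.64% to 7.97% upon M1BP RNAi and 3.37% to 5.21% in WT.

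The shares of 4 of the 9 genes thus did not overlap, where the ratio of a gene to the summed Complex IV counts did not overlap for 47.2% of all genes tested, so the number itself is close to the background. With 3 samples in each group, the smallest p of an exact permutation test is 0.1. Because shares add up to a whole, a fall of COX5B raises the others, and the shares were also computed without COX5B, a choice made after seeing the data. COX4 then took 9.71% to 9.93% upon M1BP RNAi and 8.56% to 8.70% in WT, and levy took 7.58% to 9.04% upon M1BP RNAi and 4.04% to 6.30% in WT, both still higher in all M1BP RNAi samples. COX5A took 12.3% to 13.1% upon M1BP RNAi and 13.7% to 15.1% in WT, which no longer overlapped, whereas the shares of COX7A now did.

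Pair by pair, the ratio of the genes' counts per kilobase did not overlap between M1BP RNAi and WT in 19 of the 36 pairs (52.8%), where it did not for 61.5% of all pairs of genes tested (computed after seeing the data, with a count of 0 set to 0.5), so the number is not above the background. The widest difference was, by construction, between the genes with the lowest and the highest fold change: the ratio of COX5B to levy was 1.48, 1.47 and 1.86 upon M1BP RNAi and 3.40, 4.86 and 3.33 in WT, a difference of -1.25 on the log2 scale. The ratio with the least spread upon M1BP RNAi was that of COX5B to COX6B, which was 0.516, 0.501 and 0.514 upon M1BP RNAi and 0.682, 0.647 and 0.724 in WT.

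The mtDNA-encoded subunits were set beside the nuclear ones. COX1, the subunit that holds the heme and copper centre where oxygen is reduced, had 4622779.9, 5452202 and 4665435 normalized counts upon M1BP RNAi and 7620025, 7082832 and 6121798 in WT, and COX3 had 2325542 to 2559094 upon M1BP RNAi and 3241004 to 3775481 in WT. For both genes the M1BP RNAi samples did not reach the lowest WT sample. Their log2 fold changes were -0.50 (SE 0.16, edgeR adjusted p = 0.0263) and -0.54 (SE 0.14, edgeR adjusted p = 0.0114), past 0.05 and not past 0.001. With 1 sample left out the adjusted p reached 0.0956 for COX1 and 0.0510 for COX3. With DESeq2 the adjusted p was 0.00304 for COX1 and 1.23e-04 for COX3, so that COX3 was then past 0.001, as were 28.4% of the genes in that test. COX2, which carries the copper centre that receives electrons from cytochrome c, had a log2 fold change of -0.09 (SE 0.14, edgeR adjusted p = 0.618). All 3 values turned positive when libraries were scaled by their total counts, of which mtDNA holds most (0.26, 0.67 and 0.21 for COX1, COX2 and COX3, edgeR adjusted p = 0.0432, 6.83e-04 and 0.0813), so that COX2 was then called higher at 0.001, a scaling that moved the median of all genes to 0.77. The libraries had been made with poly-T beads, and how such capture treats mtDNA transcripts was not tested.

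The balance between the nuclear and mtDNA-encoded subunits, as the ratio of their summed counts per kilobase, was 0.0390, 0.0257 and 0.0269 upon M1BP RNAi and 0.0293, 0.0209 and 0.0357 in WT. The groups overlapped, with a log2 difference of 0.10 and SDs of 0.33 and 0.39, and with 1 sample left out the difference lay between -0.11 (without WT 2) and 0.28 (without WT 3). Without COX5B in the sum, a choice made after seeing the data, the difference was 0.18 and the groups still overlapped. Against the 63 nuclear structural subunit genes of Complexes I, II, III and V, the 10 Complex IV genes had ratios of 0.135, 0.112 and 0.112 upon M1BP RNAi and 0.139, 0.117 and 0.147 in WT, with a log2 difference of -0.17 and overlapping groups. When each gene was divided by the summed counts of those 63, COX5B and COX7C were lower in all M1BP RNAi samples (log2 differences -0.68 and -0.21) and the other 7 genes overlapped, where 61.2% of all genes did not overlap in the same ratio.

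**Figure D4:**
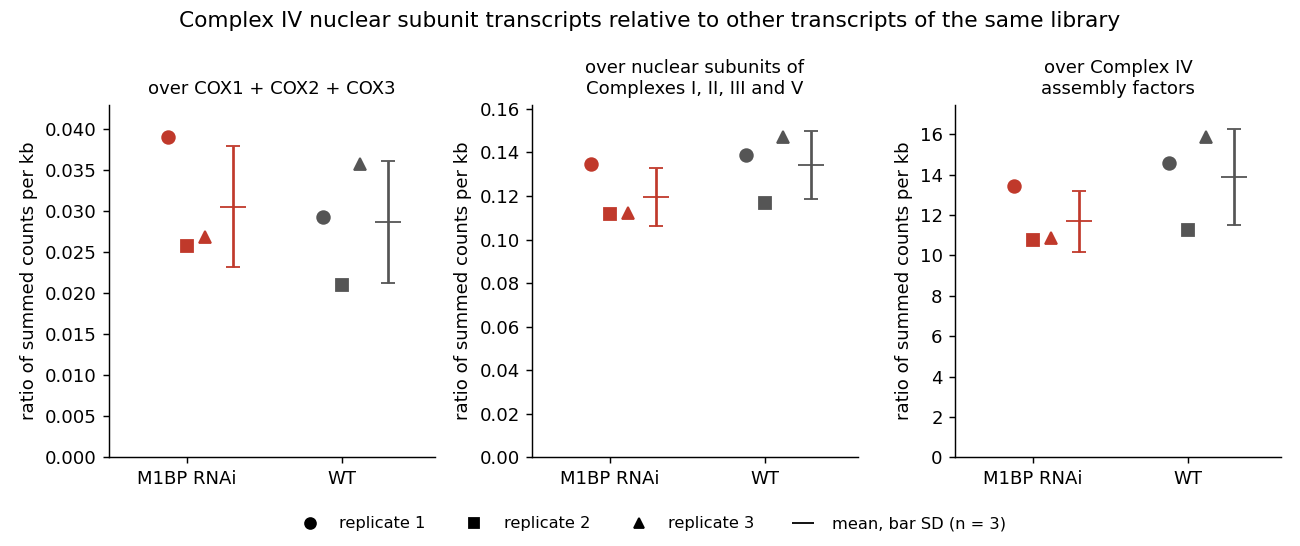
Summed counts per kilobase of the 10 Complex IV subunit genes over those of COX1, COX2 and COX3 (left), the 63 nuclear structural subunit genes of the other complexes (middle) and the Complex IV assembly factors tested (right), with 1 point per sample and the mean with its SD (n = 3), M1BP RNAi left of WT. The groups overlap in each panel.

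Genes that work beside the subunits were examined in the same fit. Cyt-c-p (FBgn0284248), which encodes the somatic cytochrome c that is the electron donor of Complex IV, had 33425, 23310.4 and 21053 normalized counts upon M1BP RNAi and 79505, 63182 and 77034 in WT. Its log2 fold change was -1.50 (SE 0.20, edgeR adjusted p = 6.45e-04), with no overlap of the samples. With 1 sample left out the adjusted p was 3.34e-04 to 0.0044, above 0.001 in every fit but that without M1BP RNAi 1. With the replicate block it was 0.0013. Scaling by total counts gave a log2 fold change of -0.74 (edgeR adjusted p = 0.0171). Cyt-c-d (FBgn0086907), the other cytochrome c gene, had 53.6, 32.0 and 39.7 normalized counts upon M1BP RNAi and 3.42, 3.98 and 6.62 in WT (log2 fold change 3.05, SE 0.37, edgeR adjusted p = 4.07e-04). With 1 sample left out its adjusted p was 0.0012 to 0.00282, above 0.001 in all 6 fits, and with the replicate block it was 0.00178. The gene shares 305 exonic bases with CG31808 on the opposite strand (571 to 1606 counts), so this value is uncertain. ND-MLRQ (FBgn0052230), whose human counterpart NDUFA4 was moved from Complex I to Complex IV, had 56335, 50362 and 47724 normalized counts upon M1BP RNAi and 81923, 64544 and 55185 in WT, with M1BP RNAi 2 and 3 below the WT range and a log2 fold change of -0.38 (SE 0.17, edgeR adjusted p = 0.0912).

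Assembly factors insert copper and heme A into the enzyme and hold its subunits together while it is built. Of the 21 listed by the study for Complex IV, 20 were tested, and at an adjusted p of 0.001, 3 were lower and 7 higher upon M1BP RNAi, against 6.58% lower and 11.0% higher among all genes. With 1 sample left out, 2 to 3 were lower and 3 to 6 higher. Of the 9297 to 9503 genes tested in these fits, 183 to 436 were lower and 419 to 842 higher. Their median log2 fold change was 0.44. The factors that fell were CG17996 (198 to 248 normalized counts upon M1BP RNAi, against 1255 to 1361 in WT), l(3)neo43 (126 to 159.5 upon M1BP RNAi, against 644 to 777 in WT) and CG11562 (256 to 276 upon M1BP RNAi, against 496 to 538 in WT). Their log2 fold changes were -2.51, -2.30 and -0.95.

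Among the factors that rose, Scox, a copper chaperone that delivers copper to COX2, had 1153 to 1331 normalized counts upon M1BP RNAi, against 451 to 513 in WT. CG3803, the counterpart of the heme A synthase gene COX15, had 318 to 327 upon M1BP RNAi, against 69.0 to 85.6 in WT, and CG31648, the counterpart of the copper chaperone gene COX11, had 443 to 516 upon M1BP RNAi, against 161 to 225 in WT. Ccdc56, the counterpart of COA3, which binds newly made COX1, had 3564 to 3929.6 upon M1BP RNAi, against 1463 to 1598 in WT. CG15653, CG4942 and CG4957 rose as well, with log2 fold changes of 2.31, 1.86 and 0.94, against 1.39 for Scox, 2.04 for CG3803, 1.34 for CG31648 and 1.30 for Ccdc56. No factor past the threshold had samples that overlapped between the groups. This adds no support, since the factors were picked from the same samples and 64.2% of all genes tested did not overlap either.

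The ratio of the 10 subunit genes to the assembly factors, as summed counts per kilobase, was 13.4, 10.7 and 10.9 upon M1BP RNAi and 14.6, 11.2 and 15.9 in WT, with a log2 difference of -0.24 and overlapping groups. Among the 63 structural subunit genes of the other complexes, 4 were lower and 0 higher at an adjusted p of 0.001, against 6.58% and 11.0% of all genes. At 0.05, 10 were lower and 1 higher, against 27.0% and 29.1% of all genes. The median log2 fold change of the 63 was -0.10, beside -0.11 for the 9 Complex IV genes tested. The lists were described by their counts only and no test compared them.

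**Figure D5:**
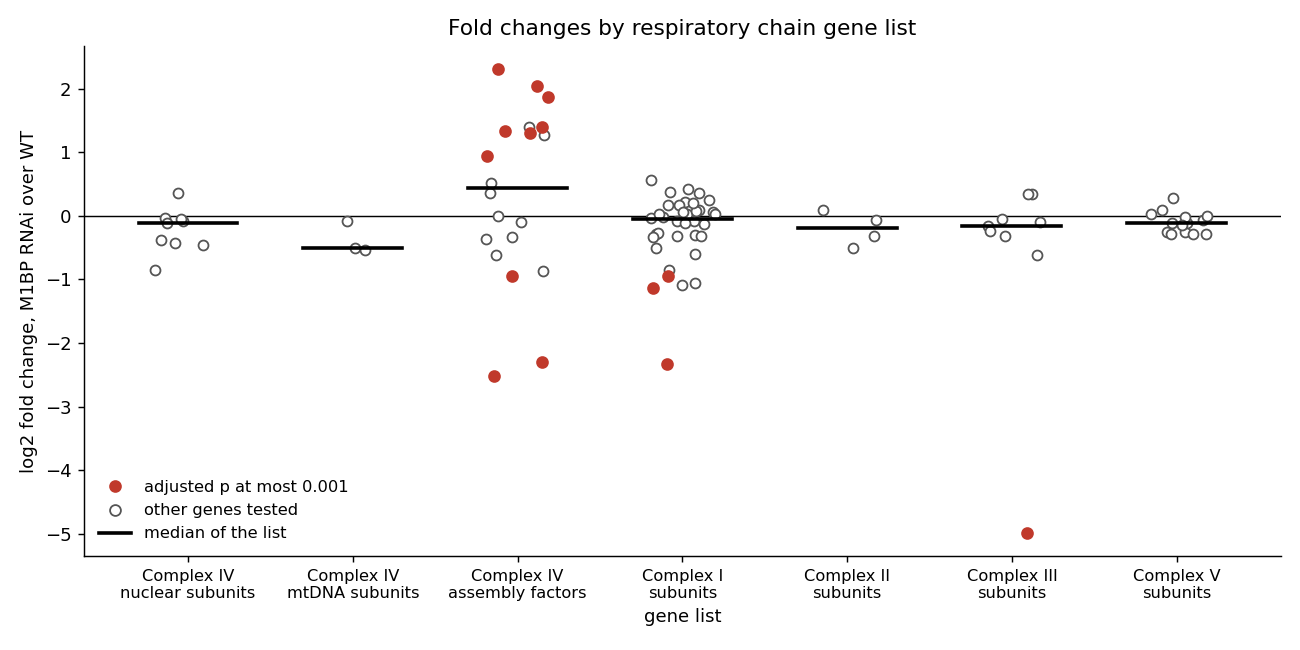
Log2 fold changes of M1BP RNAi over WT for the genes tested of each respiratory chain list, with filled points for genes past an adjusted p of 0.001 and a black line at the median of the list. The 9 nuclear Complex IV subunit genes lie between -0.85 and 0.35 with 0 filled points, whereas the assembly factors reach -2.51 and 2.31 with 10.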

How the data were processed

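The authors deposited raw read counts per gene, counted over exons of release 6 (dm6) with featureCounts of Subread, after base calling with bcl2fastq 2.17.1.14. The libraries were made with a stranded mRNA kit, but the aligner and the strand setting of the counting are not given in the sources used here. A second deposited table holds the authors' own DESeq2 comparison, of which only gene symbols were read. No per-sample column was left out. Coordinates were taken from the deposited counts, and 17229 of 17358 genes found in the reference annotation had the same span. Promoter match sequences came from the study's motif table. Other stages were not analysed here.

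The counts were tested with edgeR 4.0.16 (R 4.3.3; TMM, filterByExpr, glmQLFit and glmQLFTest, all 6 samples, no covariate), with Benjamini-Hochberg adjustment over the 9276 genes kept. DESeq2 1.42.0, limma-voom 3.58.1, other scalings, no filter, samples left out and a replicate block were alternatives. Standard errors were derived from the F statistic. RPKM and shares used the exonic lengths of the count table. The tests were first tried on simulated data. The study gives 3 independent biological replicates as its general rule, and its libraries came from RNA prepared in triplicate. Whether the replicates came from separate cultures or crosses is not in the labels, so p-values measure the spread between these samples. The mean ± SD of 3 samples limits the precision, and floors of 3 counts cover counting error only. Genes were named by rule: M1BP, the 10 subunit genes, COX1 to COX3, ND-MLRQ, cytochrome c genes, paralogs, assembly factors past the threshold and genes sharing exonic bases. The paralogs COX6AL2, COX6CL and COX7CL were not matched by symbol and are not analysed here. The subunit genes and lists were chosen with earlier results of these data known.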

Additional observations from a re-analysis of the deposited data

How the results depend on the processing

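The count of Complex IV subunit genes past an adjusted p of 0.001 was 0 in every alternative but DESeq2, which called 1 (COX5B), and the count past 0.05, also 1, became 2 with total library size scaling (COX4 and levy, both higher, adjusted p 0.0309 and 0.0266, with COX5B at 0.749), 4 with upper quartile normalization (COX5A, COX5B, COX6B and COX7C, all lower) and 0 to 2 when 1 sample was left out. Of all 9276 genes, 556 were lower and 5190.0 higher at 0.05 with total library size scaling, and 3049 and 2319 with upper quartile normalization. Scaling by total counts moved the median of the 9 genes to 0.65 (that of all genes to 0.77) and reversed COX4 (0.68), COX5A (0.31), COX6B (0.33), COX7A (0.72), COX7C (0.38), COX8 (0.65), cype (0.70), COX1 (0.26), COX2 (0.67), COX3 (0.21) and ND-MLRQ (0.39), while COX5B stayed at -0.10 and M1BP at -0.61 (adjusted p = 0.0136). COX7A also turned to 0.0013 without a filter on low counts and cype to 0.0015 with limma-voom. Leaving out 1 sample gave -0.25 to 0.039 for COX4, -0.27 to 0.18 for COX7A and -0.39 to 0.11 for COX8. It gave -0.31 to 0.23 for cype and -0.16 to 4.34e-04 for COX2. These sign changes are of values that had passed no threshold. M1BP kept its sign, at -1.42 to -1.24 (edgeR adjusted p 0.00103 to 0.00228, above the 0.001 that it passed with all samples). With DESeq2 the assembly factors numbered 5 lower and 10 higher, where 1315 and 1711 of its 10644 genes were. At an adjusted p of 0.05 they numbered 7 lower and 10 higher, where 27.0% and 29.1% of all genes were. Without 1 sample 3 to 6 were higher, where 419 to 842 of all genes were. The difference from the other nuclear subunits became 0.025 when genes were averaged as logs, a measure in which each gene weighs the same. The cause of this and of the other shifts was not tested. Same-numbered samples correlated at 0.05, 0.18 and -0.02, and differently numbered ones at -0.34 to 0.28. No pairing by replicate number was seen, but 3 samples in each group cannot exclude one. With the replicate block M1BP was at -1.35 (adjusted p = 0.00205), COX5B at -0.85 (0.00993), and 246 genes were lower and 544 higher at 0.001, where 610 and 1016 were without the block, with 0 of the Complex IV subunit genes among them.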
